A study of Mus musculus with 6 samples.

Results

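The 10 genes described here encode Toll-like receptors (TLRs), their lipopolysaccharide co-receptors and their main adaptors. They were taken by symbol (Tlr2, Tlr3, Tlr4, Tlr5, Tlr7, Tlr9, Cd14, Ly96, Myd88 and Ticam1) from a count table of 45703 genes, and all 10 were found there. The samples were 6 primary cultures of dorsal root ganglia, which hold the cell bodies of sensory neurons together with satellite glia, Schwann cells and resident macrophages. The mice were wild-type C57BL/6 adults of 4 to 6 weeks. Cells were freed with Liberase, a collagenase blend, and grown on dishes coated with poly-L-lysine for 7 days. The medium held 10% fetal calf serum and 10 ng/ml each of the growth factors EGF and FGF. RNA of each sample came from 2 dishes, and the design text calls the samples biological replicates without tying them to animals. All 6 samples form 1 group, for which the labels name no TLR agonist, so there is no comparison between conditions. The p-values concern spread beyond counting noise, relations to marker scores, or differences between genes, all within these cultures.

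TLRs recognise molecules of microbes and of damaged cells. At the cell surface TLR2 senses bacterial lipoproteins, TLR5 senses flagellin, and TLR4 senses lipopolysaccharide with the help of MD-2 (Ly96) and CD14. In endosomes TLR3 senses double-stranded RNA, TLR7 single-stranded RNA and TLR9 unmethylated CpG DNA. MyD88 carries the signal of all of these receptors except TLR3, which uses TRIF (Ticam1), and TLR4 uses both adaptors. Macrophages are known for expressing many of these receptors, and TLR3 and TLR4 are also known from glia, fibroblasts and sensory neurons.

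The libraries held 20070639 to 22968642 counts. Values are given as CPM, the counts per 1000000 counts of a library, or, to compare genes, as CPM per kilobase of the table's combined exon length. Markers of the peripheral glial lineage were found for 6 of 6 genes (summed CPM 4162 to 6033) and of neurons for 8 of 8 (974 to 1965). All 12 macrophage markers exceeded 3 counts in at least 1 library, and their summed CPM ran from 21.8 in replicate 1 to 225 in replicate 5. The fibroblast list ran from 3344 to 14203 CPM and the endothelial list from 13.5 to 133 CPM, lowest in replicate 1 and highest in replicate 5 for both. Lymphocyte markers exceeded 3 counts for 1 of 6 genes, with Cd3d and Ms4a1 at 0 in every library. Neutrophil and mast cell markers did so for 2 of 6 genes, with S100a9 at 0, and plasmacytoid dendritic cell markers for 0 of 4, with Siglech, Ccr9 and Klk1 at 0. In bulk RNA, fewer cells of a type and less RNA per cell cannot be told apart.

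RefSeq promoter windows on GRCm38.p6 were at hand for 6 of the 10 genes. The stretches just upstream of the table's gene are shown for the 2 adaptors, which serve all the receptors here. They lie on the minus strand at chr9:119340042-119340268 and chr17:56276787-56277017, in that order, and are written 5′ to 3′. Neither holds an exon of GENCODE vM21, although the Myd88 stretch lies inside the extents of a longer Myd88 model, of Acaa1a and of Slc22a14 there. Capitals mark matches, on either strand, to the letters searched for the myeloid factor PU.1 (GAGGAA) or for interferon regulatory factors (GAAA, any 2 bases, GAAA).
Myd88: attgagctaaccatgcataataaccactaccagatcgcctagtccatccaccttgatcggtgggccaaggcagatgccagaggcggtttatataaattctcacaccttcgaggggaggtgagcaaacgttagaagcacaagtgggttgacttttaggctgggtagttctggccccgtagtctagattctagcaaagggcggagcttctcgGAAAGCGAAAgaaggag
Ticam1: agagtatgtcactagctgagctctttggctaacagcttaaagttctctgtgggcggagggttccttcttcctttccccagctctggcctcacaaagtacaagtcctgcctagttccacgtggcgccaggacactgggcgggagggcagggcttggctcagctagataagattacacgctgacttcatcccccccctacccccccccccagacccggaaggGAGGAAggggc
The Myd88 stretch of 227 bases held 1 match to the interferon regulatory factor motif, found in 2.7% of 32851 RefSeq promoter windows cut to that length. Letters searched for NF-kB (GGG, any 5 bases, CC) had no match in either stretch. The Ticam1 stretch of 231 bases held 1 PU.1 match, found in 21.4% of windows cut to its length. These matches describe letters and not binding.

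Among the surface receptors, Tlr4 (chromosome 4, 66827551 to 66846581, GRCm38.p6) had the highest CPM of the 10 genes and differed little between cultures. Its CPM in replicates 1 to 6 was 40.5, 35.5, 37.8, 45.2, 40.1 and 47.6, a mean of 41.1 ± 4.52 (SD, n = 6). Replicate 6 was the highest and replicate 2 the lowest, 1.34-fold apart. Tlr2 (chromosome 3, 83836272 to 83841824), which pairs with TLR1 or TLR6, measured 0.740, 1.09, 1.85, 2.64, 2.58 and 1.53 CPM in the same order. Its mean was 1.74 ± 0.773 CPM, and replicates 3, 4 and 5 each stood above replicates 1, 2 and 6. Tlr5 (chromosome 1, 182954752 to 182976044), the flagellin receptor, had 1, 0, 4, 4, 3 and 0 counts. Pooled over the libraries this is 0.0934 CPM with an exact Poisson 95% interval from 0.0482 to 0.163, which covers counting error only. A count of 0 allows up to 3 counts, or 0.137 CPM in replicate 2 and 0.143 CPM in replicate 6, so differences of Tlr5 between cultures were not detectable at this depth.

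The lipopolysaccharide co-receptors differed from each other. Cd14 (chromosome 18, 36725064 to 36726815), which hands lipopolysaccharide to the receptor complex, measured 1.31, 3.64, 5.72, 6.18, 9.46 and 3.49 CPM in replicates 1 to 6. That is 4.97 ± 2.81 CPM (SD, n = 6) and a 7.24-fold range, with replicate 1 lowest and replicate 5 highest. Ly96 (chromosome 1, 16688456 to 16709605), the MD-2 subunit that binds lipopolysaccharide on TLR4, measured 3.57, 4.01, 4.15, 5.18, 5.21 and 3.54 CPM. Its mean was 4.28 ± 0.751 CPM, with replicates 4 and 5 highest and a 1.47-fold range.

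Of the endosomal receptors, Tlr3 (chromosome 8, 45395665 to 45411075) measured 19.2, 25.6, 26.6, 24.2, 17.1 and 34.2 CPM in replicates 1 to 6. Its mean was 24.5 ± 6.05 CPM (SD, n = 6). Replicate 6 was 2.00-fold above replicate 5, the library with the highest macrophage and fibroblast markers. Tlr7 (chromosome X, 167303380 to 167330574) had the widest range of the 8 genes kept by edgeR's filter on low counts. It measured 0.566, 1.05, 4.52, 5.64, 6.93 and 1.58 CPM, a 12.2-fold span from replicate 1 to replicate 5 around a mean of 3.38 ± 2.67 CPM. Tlr9 (chromosome 9, 106222598 to 106226876) had 3, 5, 6, 3, 13 and 0 counts, pooled 0.233 CPM (exact Poisson 95% interval 0.158 to 0.333). Its highest value lay in replicate 5, and 3 of 6 libraries held no more than 3 counts.

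The adaptors were counted in every culture at similar CPM. Myd88 (chromosome 9, 119335934 to 119340018) measured 23.03, 24.5, 27.4, 27.0, 27.4 and 26.6 CPM, a mean of 26.0 ± 1.80 (SD, n = 6). Ticam1 (chromosome 17, 56269462 to 56276767) measured 30.6, 33.5, 24.9, 28.0, 31.1 and 26.3 CPM, a mean of 29.1 ± 3.22. The highest and lowest libraries were 1.19-fold apart for Myd88 and 1.35-fold for Ticam1. No other gene of the table overlapped any of the 10 genes. In GENCODE vM21, exons on the opposite strand share 223 bases with Myd88 (Acaa1a) and 381 bases with Tlr3 (Gm45542), and Slc22a14 spans Myd88 with no shared exon base. The kit was stranded, but the strand setting of the counting is not given, so reads from such stretches may not be told apart. Fractional counts, which can arise where reads are shared between places, occurred in 1 library each for Tlr7 and Ticam1.

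**Figure D1:**
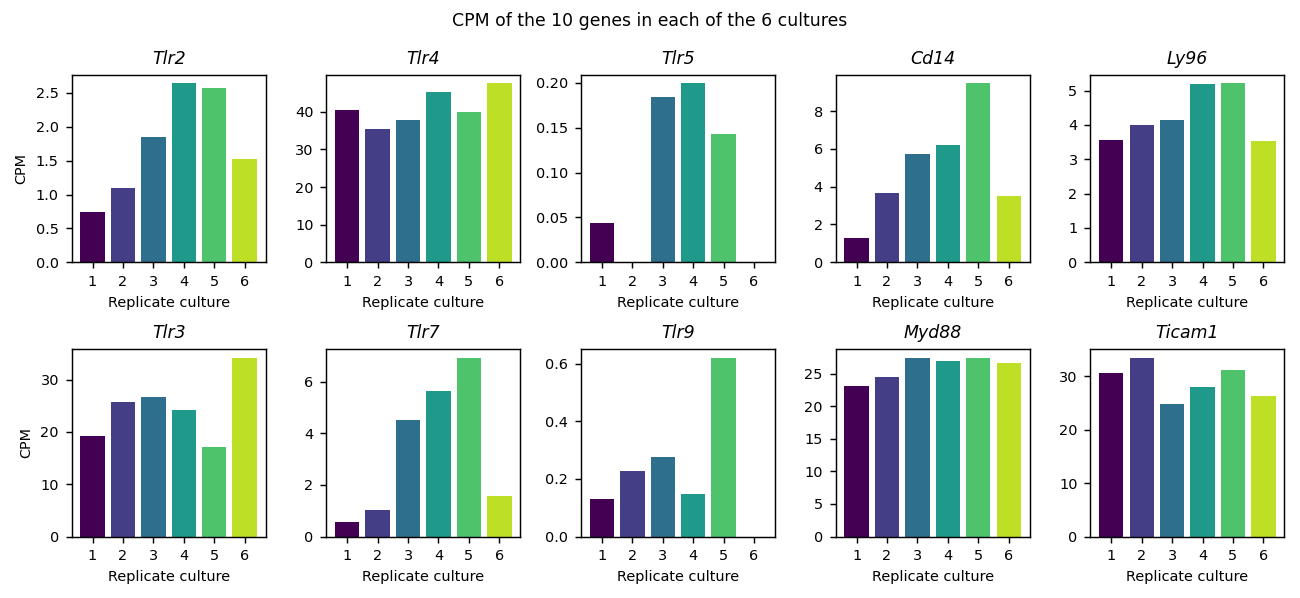
CPM (vertical axis, from 0, with its own scale in each panel) of each of the 10 genes in replicate cultures 1 to 6 (bars, single libraries). Tlr7 and Cd14 are highest in replicate 5 and lowest in replicate 1, whereas Myd88 lies between 23.03 and 27.4 CPM in all 6.

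Whether a gene's 6 counts differed by more than counting noise was judged by chi-square against TMM-scaled library sizes, adjusted by the Benjamini-Hochberg method over the 14998 genes kept by edgeR's filter on low counts. The filter kept 8 of the 10 genes and left out Tlr5 and Tlr9. Of these 8, 7 varied beyond counting noise at an adjusted p under 0.05, beside 76.3% of all genes tested, so the count is near its background. The adjusted p was 2.20e-45 for Tlr7, 9.30e-34 for Cd14, 1.35e-32 for Tlr3, 1.41e-09 for Tlr4, 1.15e-08 for Ticam1, 2.30e-06 for Tlr2 and 0.0355 for Ly96. Myd88 did not pass (chi-square test, adjusted p = 0.0976). It passed with library totals as scaling (adjusted p = 0.0223) and without replicate 2 (0.0435). Ly96 did not pass without the filter (adjusted p = 0.0614) or without replicate 1 (0.0701), 4 (0.0849), 5 (0.111) or 6 (0.0643).

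The size of the spread separated the genes more than the test did. The coefficient of variation of CPM (SD over mean) was 78.9% for Tlr7, 56.6% for Cd14 and 44.5% for Tlr2. It was 24.7% for Tlr3, 17.6% for Ly96, 11.1% for Ticam1, 10.98% for Tlr4 and 6.94% for Myd88. The median over the 14998 genes was 12.1%. Among those genes, 98.7% had a lower coefficient than Tlr7, 96.7% lower than Cd14 and 94.6% lower than Tlr2, against 45.2% lower than Tlr4 and 20.8% lower than Myd88.

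Levels between genes were compared per kilobase. In order of mean CPM per kb the genes were Myd88 (13.4 ± 0.931), Ticam1 (10.3 ± 1.14), Ly96 (7.09 ± 1.24), Tlr4 (5.21 ± 0.572), Tlr3 (4.82 ± 1.19), Cd14 (2.99 ± 1.69), Tlr7 (0.612 ± 0.483), Tlr2 (0.518 ± 0.230), Tlr9 (0.0675 ± 0.0610) and Tlr5 (0.0163 ± 0.0157), each with SD and n = 6. The median over the 14998 genes was 7.20 CPM per kb. Neighbours in this order did not all differ beyond their spread. The order of Tlr4 and Tlr3 held in 3 of 6 libraries, and so did that of Tlr7 and Tlr2. Ly96 stood above Tlr4, and Tlr3 above Cd14, in 5 of 6 libraries each. Tlr9 stood above Tlr5 in 5 of 6, and both had 0 counts in replicate 6. In replicate 4 Tlr9 had 3 counts and Tlr5 had 4, so their order there comes from length. The remaining 4 neighbouring pairs kept their order in 6 of 6.

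**Figure D2:**
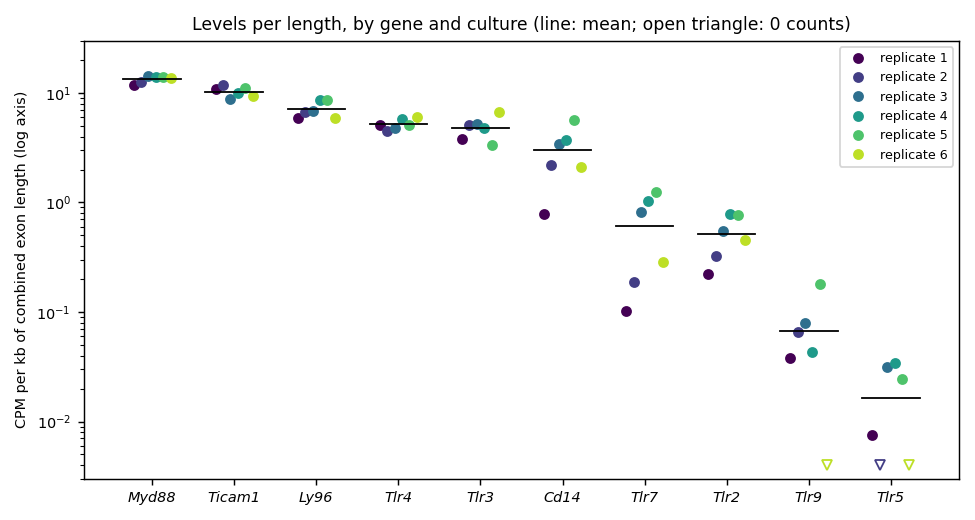
CPM per kilobase of combined exon length (log axis) of the 10 genes, ordered by their mean (line), with 1 point per replicate culture and open triangles for libraries with 0 counts. Tlr4 and Tlr3 overlap, at means of 5.21 and 4.82, and Tlr2, at 0.518, lies below Tlr4 in all 6 cultures.

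For 7 pairs of genes in the same pathway step, the within-library difference of log2(CPM per kb + 0.1) was judged by flipping its sign in every combination of libraries (exact permutation, two-sided; smallest p with 6 libraries 0.0312). Tlr2 lay below Tlr4 in 6 of 6 libraries (log2 difference -3.19 ± 0.551), and Tlr3 lay above Tlr7 in 6 of 6 (3.10 ± 1.25). Tlr7 lay above Tlr9 in 6 of 6 (1.82 ± 0.944), and Myd88 above Ticam1 in 6 of 6 (0.39 ± 0.234). Each of these 4 pairs reached the smallest p, 0.0312 (exact permutation), and 0.0547 after adjustment over the 7 pairs, which does not pass. At the smallest p the adjusted value depends only on how many of the 7 pairs reach it. Whether such a pair passes thus says nothing about the size of its own difference. Tlr9 measured 0 to 0.179 CPM per kb, mostly below the added 0.1, so the size of its difference from Tlr7 rests on that value. Cd14 lay below Tlr4 in 5 of 6 libraries (Tlr4 minus Cd14, 0.99 ± 0.944; exact permutation p = 0.0625, adjusted 0.0729). The exception was replicate 5, where Cd14 was at 5.69 CPM per kb and Tlr4 at 5.08. In replicate 1 the values were 0.786 for Cd14 and 5.14 for Tlr4, a 6.53-fold ratio.

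Tlr4 and its partner Ly96 differed by -0.43 ± 0.290 (Tlr4 minus Ly96, log2; 5 of 6 libraries; exact permutation p = 0.0625, adjusted 0.0729), and Tlr3 and Tlr4 by -0.14 ± 0.330 (exact permutation p = 0.406, adjusted 0.406). The Tlr4 and Ly96 order depends on which length is used. The combined exon length of Tlr4 is 7891 bases, whereas its longest protein-coding GENCODE transcript has 4077 bases. With those transcript lengths, an alternative chosen after seeing the data, Tlr4 stood above Ly96 by 0.58 on the log2 scale and above Tlr3 by 0.88 (exact permutation p = 0.0312 and adjusted p = 0.0312 for both). All 7 pairs then passed, since all 7 reached the smallest p.

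Summed over the 12 TLR genes of the table, Tlr4 took 39.5% ± 7.72 and Tlr3 36.4% ± 9.64 of the CPM per kb (SD, n = 6). Together they took 91.5%, 89.2%, 67.5%, 67.9%, 53.2% and 86.0% in replicates 1 to 6. The share was lowest in replicate 5, where Tlr13 took 20.1%, Tlr7 7.89% and Tlr8 7.31%. In replicate 1 these 3 receptors took 1.67%, 1.05% and 0.664%. The split between Tlr4 and Tlr3 rests on the length used. With the longest coding transcripts, an alternative chosen after seeing the data, Tlr4 took 51.9% ± 8.03 and Tlr3 28.5% ± 7.18, and together they took from 61.4% in replicate 5 to 94.0% in replicate 1.

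To see which genes moved with the markers of a cell type, log2(TMM-scaled CPM + 0.5) of every kept gene was related to the mean of the same quantity over all 12 macrophage, 8 fibroblast or 6 glial lineage genes. The macrophage list (Csf1r, Cd68, C1qa and others) holds none of the 10 genes. Its score ran from 1.02 in replicate 1 to 3.83 in replicate 5, in the order 1, 2, 6, 3, 4 and 5. A single gap of 1.40 between replicates 6 and 3 made up 49.8% of that range, with 3 libraries on each side, too few to test a relation inside either. The endothelial score had the same order of libraries.

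Tlr7 followed the macrophage score library by library. Its Pearson's r was 0.998 (exact permutation p = 0.00139, the smallest that 720 pairings gave) and its Spearman's rho 1.0 (exact permutation p = 0.00278). Its slope was 0.98 log2 units per unit of score. Cd14 had r = 0.935 (exact permutation p = 0.00417), rho = 0.943 (exact permutation p = 0.0167) and a slope of 0.67. Tlr2 had r = 0.956 (exact permutation p = 0.00278), rho = 0.943 (exact permutation p = 0.0167) and a slope of 0.43. Once replicates 1 and 5, which lay farthest from the median score, were left out, r was 0.997 for Tlr7, 0.971 for Cd14 and 0.889 for Tlr2. Leaving them out keeps the gap of 1.40 between replicates 6 and 3. Such r values with the macrophage score, here and below, cannot tell a graded relation from a step across that gap.

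The other genes had slopes near 0. Myd88 had r = 0.846 (exact permutation p = 0.00833), rho = 0.829 (exact permutation p = 0.0583) and a slope of 0.06. Without replicates 1 and 5 its r was 0.675, and its spread did not pass against counting noise (chi-square test, adjusted p = 0.0976). Ly96 had r = 0.811 (exact permutation p = 0.0736), rho = 0.714 (exact permutation p = 0.136) and a slope of 0.15. For Tlr3, Tlr4 and Ticam1 r lay between -0.43 and -0.02 (rho -0.37 to 0.09; exact permutation p of r 0.364 to 0.958), with slopes of -0.06, -0.00 and -0.07. Single libraries moved these r values: for Tlr3 r was -0.71 without replicate 1 and 0.22 without replicate 5, and for Tlr4 -0.23 without replicate 2 and 0.21 without replicate 6. For Ticam1 it ran from -0.68 without replicate 5 to -0.22 without replicate 2. The median slope of all 14998 genes was -0.00 and the 95th percentile 0.34, so Tlr7, Cd14 and Tlr2 exceeded that percentile and the other 5 did not.

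No relation passed adjustment over all genes. With Benjamini-Hochberg adjustment over 14998 genes, 0 of 8 members and 0.0% of all genes were related to the macrophage score, by Pearson's r or by Spearman's rho. For r the adjusted p was 0.0902 for Tlr7, 0.117 for Tlr2, 0.139 for Cd14 and 0.184 for Myd88 (exact permutation). In simulated data this test recovered 0 of 200 genes that followed the score with a slope of 1, so a count of 0 says little here. At an unadjusted p under 0.05, 4 of 8 members (Tlr2, Tlr7, Cd14 and Myd88) were higher with a higher score by r, beside 8.41% of all genes, and 3 of 8 by rho, beside 6.28%. None of the 8 was lower, beside 7.39% of all genes by r and 5.9% by rho.

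**Figure D3:**
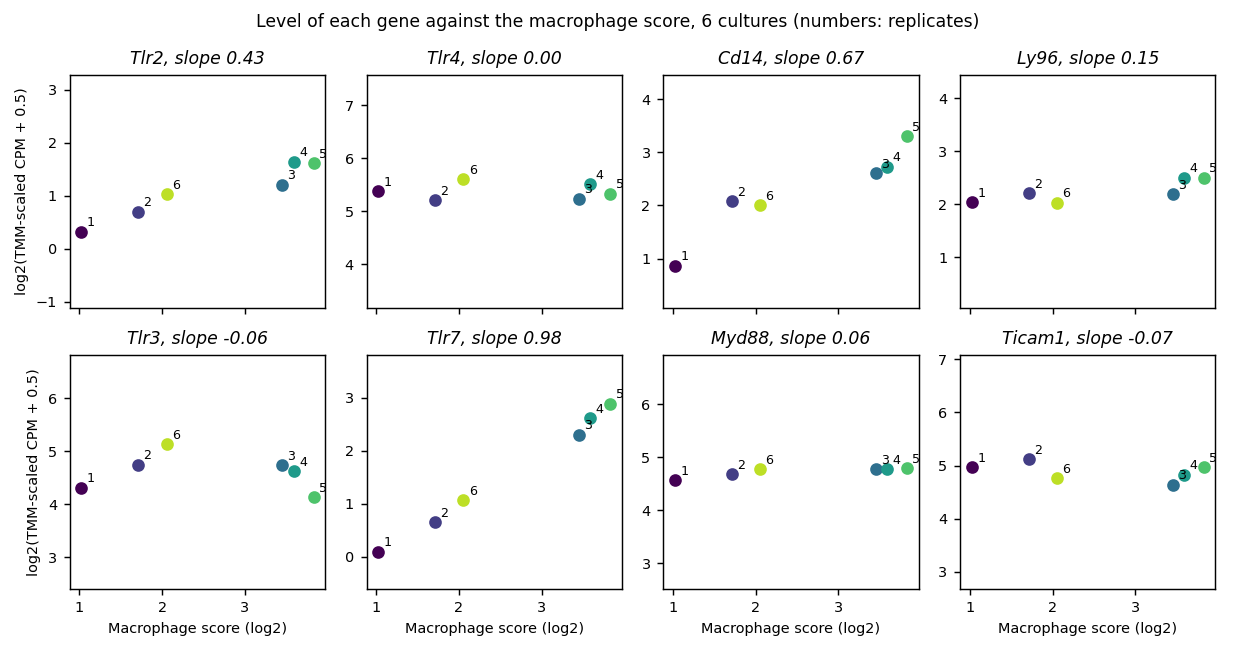
log2(TMM-scaled CPM + 0.5) of the 8 kept genes (vertical axes, all spanning the same number of log2 units) against the macrophage score, with 1 numbered point per replicate culture. Tlr7 climbs along the score with a slope of 0.98, and Cd14 and Tlr2 with 0.67 and 0.43, whereas Tlr4, Tlr3, Myd88 and Ticam1 stay within 0.07 of a slope of 0.

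The ratio to macrophage transcripts restates the same values without a fit, so it is not further support. Tlr7 CPM was 2.60%, 2.60%, 2.77%, 3.02%, 3.08% and 2.81% of the summed CPM of the 12 macrophage genes in replicates 1 to 6, a 1.19-fold range while that sum ranged 10.3-fold. Cd14 ranged from 3.30% to 9.03% of it, Tlr2 from 1.13% to 3.40%, and Ly96 from 2.32% to 16.4%. Tlr4 went from 186% in replicate 1 to 17.8% in replicate 5, and Tlr3 from 88.0% to 7.61%. Tlr4 CPM itself was 40.5 and 40.1 in these replicates, so the fall of its ratio comes from the rise of the sum. Tlr7 thus kept a near-constant ratio to these genes, and Tlr4 and Tlr3 did not.

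**Figure D4:**
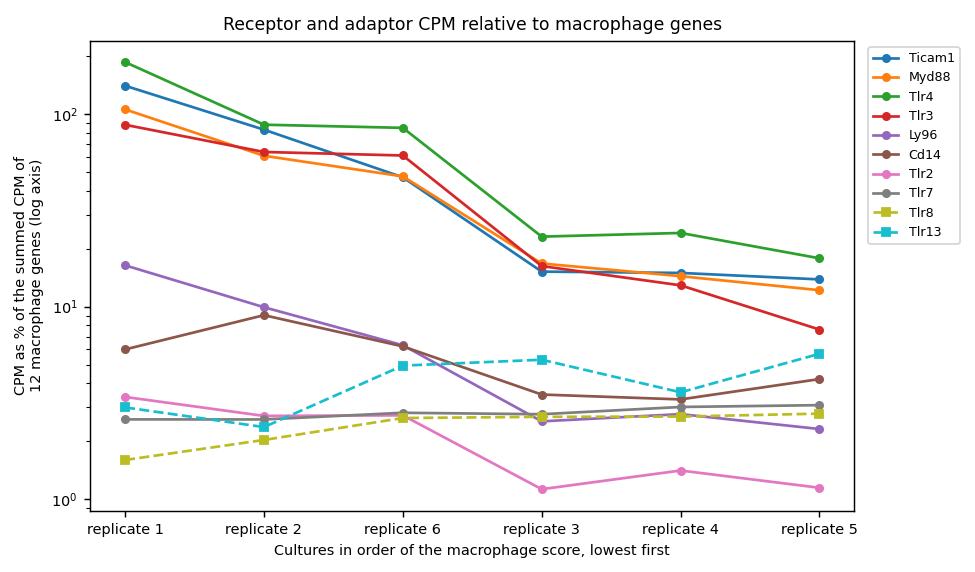
CPM of each gene as a percentage of the summed CPM of 12 macrophage genes (log axis), in cultures ordered by the macrophage score, with 1 line per gene and dashed lines for Tlr8 and Tlr13. Tlr7 stays between 2.60% and 3.08%, and Tlr4 falls from 186% to 17.8%. Tlr4 CPM itself was 40.5 in replicate 1 and 40.1 in replicate 5, so its fall comes from the rise of the sum.

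Fibroblast markers moved in part with the same libraries, so the relations to the 2 lists cannot be told apart for all genes. The same limit holds for other lists. The endothelial score had the library order of the macrophage score, so each rho given for macrophages is also the rho with that score. The score of mural cell markers (Rgs5, Notch3 and others) was also lowest in replicate 1 (1.69) and highest in replicate 5 (4.11). Relations of the members to these 2 scores were not tested. The fibroblast score put the libraries in the order 1, 6, 3, 2, 4 and 5. Cd14 had r = 0.944 with it (exact permutation p = 0.00972; rho = 0.943, exact permutation p = 0.0167), close to its value for macrophages. Ly96 had r = 0.905 (exact permutation p = 0.00694; rho = 0.943, exact permutation p = 0.0167) and a slope of 0.16. Tlr7 had r = 0.869 (exact permutation p = 0.0111; rho = 0.829, exact permutation p = 0.0583) and Tlr2 r = 0.899 (exact permutation p = 0.0222; rho = 0.771, exact permutation p = 0.103). Without replicates 1 and 5, r with the fibroblast score was 0.974 for Ly96, 0.731 for Cd14, 0.672 for Tlr7 and 0.787 for Tlr2. The score was then 6.66, 6.88, 6.94 and 7.97 in replicates 6, 3, 2 and 4. Such r values with this score, here and below, therefore rest largely on replicate 4. The spread of Ly96 was also close to counting noise (chi-square test, adjusted p = 0.0355). At an unadjusted p under 0.05, 4 of 8 members were higher with the fibroblast score by r, beside 11.8% of all genes, and 2 of 8 by rho, beside 4.82%. None was lower, beside 8.25% by r and 3.4% by rho, and 0 of 8 passed adjustment (exact permutation, beside 0.0% of all genes).

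The glial lineage score ran only from 8.31 in replicate 5 to 8.97 in replicate 2. Tlr3 had the highest positive value of the 8 members with it (r = 0.670, exact permutation p = 0.144; rho = 0.771, exact permutation p = 0.103), and r was 0.310 without replicates 2 and 5. Tlr7 had r = -0.80 (exact permutation p = 0.0389; rho = -0.83, exact permutation p = 0.0583) and -0.76 without those libraries. By r, 1 of 8 members was lower with a higher glial score at an unadjusted p under 0.05, beside 7.28% of all genes, and 0 of 8 by rho, beside 2.71%. None was higher, beside 8.4% by r and 4.3% by rho, and 0 of 8 passed adjustment (exact permutation, beside 0.0%).

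The genes most alike to the 3 most variable members over the 6 libraries were taken from 11933 genes with a mean of at least 5 CPM, as a description. For Tlr7 they were Fcer1g (r = 0.997), Cd68 (0.996) and Itgb2 (0.996). Fcer1g is the signalling chain of Fc receptors, Cd68 a lysosomal protein of macrophages that is also in the macrophage list, and Itgb2 the beta chain of leukocyte integrins. For Cd14 they were Sned1 (r = 0.996), Nck1 (0.995) and Svep1 (0.994), of which Sned1 and Svep1 encode extracellular matrix proteins. For Tlr2 they were Prkrip1 (r = 0.993), Creg1 (0.99) and the prostaglandin synthase Ptgs1 (0.989).

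Among the 6 other TLR genes, Tlr8 and Tlr13, both endosomal sensors of RNA, resembled Tlr7. Tlr8 (chromosome X, 167241123 to 167264329) lies next to Tlr7 on the same strand. It measured 0.348, 0.820, 4.39, 5.03, 6.26 and 1.48 CPM in replicates 1 to 6. Tlr13 measured 0.653, 0.956, 8.68, 6.73, 12.8 and 2.77 CPM, and its slope on the macrophage score was 1.21 (r = 0.976, exact permutation p = 0.00278, adjusted 0.117; rho = 0.943). Tlr8 was left out by the filter because of its 8 counts in replicate 1. Tlr1 and Tlr6, the partners of TLR2, averaged 0.440 ± 0.246 and 0.829 ± 0.497 CPM (SD, n = 6). Their counts were fractional in 3 libraries each, so their reads may have been shared and their levels are uncertain. Tlr12 had at most 4 counts and Tlr11 had 0 in every library.

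Accessory proteins of the receptors differed widely in their slopes. Cd180 and Ly86, which form a TLR4-like complex of B cells and macrophages, averaged 3.89 ± 2.74 and 7.17 ± 4.83 CPM (SD, n = 6), with slopes of 0.92 and 0.75 on the macrophage score. Lbp, the plasma protein that delivers lipopolysaccharide to CD14, measured 4.14 CPM in replicate 1 and 104 CPM in replicate 5, its lowest and highest values. Cd36, a co-receptor of TLR2, ran from 4.53 to 66.4 CPM. Their slopes were 1.22 and 1.33. Lbp had r = 0.910 with the macrophage score (exact permutation p = 0.00833, adjusted 0.184; rho = 0.943) and r = 0.979 with the fibroblast score (exact permutation p = 0.00417, adjusted 0.131; rho = 0.943). Without replicates 1 and 5 these were 0.802 and 0.895. Cd36 had 0.965 and 0.794 (exact permutation p = 0.00139 and 0.0611; rho = 1.0 and 0.829), and 0.923 and 0.488 without those replicates. Whether r differed between the 2 scores was not tested. Unc93b1, which carries the endosomal TLRs from the endoplasmic reticulum, was steadier at 22.02 ± 3.80 CPM, with a slope of 0.16. The chaperones of TLR folding Hsp90b1 (806 ± 94.6 CPM) and Cnpy3 (44.8 ± 2.03 CPM) had slopes of 0.09 and 0.03. For Hsp90b1 r was 0.730 with the macrophage score (exact permutation p = 0.0611; rho = 0.829) and 0.935 with the fibroblast score (exact permutation p = 0.00694, adjusted 0.138; rho = 0.829). Hmgb1 of the same list (121 ± 4.99 CPM) was lower with a higher macrophage score, with a slope of -0.06. Its r was -0.97 (exact permutation p = 0.00139, adjusted 0.0902) and its rho -1.0. Of the 10 accessory genes, 9 varied beyond counting noise (chi-square test, adjusted p under 0.05), beside 76.3% of all genes, and 0 were called for the macrophage score after adjustment.

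The 3 tested further adaptors had a higher median coefficient of variation than the kinases and ligases, a difference that was not tested. Tirap (7.96%) lay near the median of the kinases and ligases, and Irak2 of their list (64.6%) stood above all 3. All 3 tested adaptors varied beyond counting noise (chi-square test), beside 76.3% of all genes, with a median coefficient of variation of 23.4%. Tirap, the bridge from TLR2 and TLR4 to MyD88, averaged 28.2 ± 2.25 CPM (SD, n = 6), close to the CPM of Myd88. Ticam2, the bridge from TLR4 to TRIF, had at most 15 counts and averaged 0.347 ± 0.229 CPM. Sarm1, a TIR-domain protein of neurons that degrades NAD, averaged 10.4 ± 3.21 CPM and was 2.75-fold higher in replicate 3 than in replicate 5. Pik3ap1, an adaptor that links receptors to PI3-kinase, averaged 20.4 ± 4.76 CPM and was 2.13-fold higher in replicate 6 than in replicate 5. The median coefficient of variation of 14 kinase and ligase genes was 7.51%, and 11 of 14 varied beyond counting noise (chi-square test), near the 76.3% of all genes. Irak4, the first kinase of the MyD88 complex, averaged 20.9 ± 2.07 CPM and Traf6, its ubiquitin ligase, 43.9 ± 2.65 CPM, and Tbk1, the kinase of the TRIF branch, 53.4 ± 2.43 CPM. Irak2 was the exception in this list, with 1.98, 2.60, 7.78, 8.47, 13.5 and 5.36 CPM in replicates 1 to 6 and a slope of 0.77 on the macrophage score (r = 0.957, exact permutation p = 0.00139, adjusted 0.0902; rho = 1.0). Ube2n, Map3k7, Tab2 and Traf6 were lower with a higher score, with slopes of -0.05, -0.04, -0.12 and -0.06. Their r was -0.89, -0.91, -0.84 and -0.75 (exact permutation p from 0.0125 to 0.0333, adjusted 0.210 to 0.276). By r 7.39% of all genes were lower at an unadjusted p under 0.05.

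Interferon regulatory factors and inhibitors also differed in their slopes on the macrophage score. Irf3, the factor activated by TRIF, averaged 38.9 ± 4.98 CPM with a slope of 0.11, and Irf5, a factor of myeloid cells, 2.56 ± 1.53 CPM with a slope of 0.61. Irf7 averaged 4.75 ± 2.14 CPM with a slope of 0.35 and was highest in replicate 6. Its r with the macrophage score was 0.641 (exact permutation p = 0.186), and -0.004 without replicates 1 and 5. Irf8, another myeloid factor, measured 0.435 to 4.39 CPM and was left out by the filter. Among the inhibitors, Tollip averaged 129 ± 12.3 CPM with a slope of -0.08. Irak3, an inhibitory kinase relative known from macrophages, averaged 4.45 ± 2.44 CPM with a slope of 0.49, and Tnfaip3 (A20) 4.18 ± 1.77 CPM with a slope of 0.46. For Irak3 r was 0.853 with the macrophage score (exact permutation p = 0.0264, adjusted 0.255). With the glial lineage score it was -0.961 (exact permutation p = 0.00417, adjusted 0.252). All 3 tested transcription factors and all 7 tested inhibitors varied beyond counting noise (chi-square test, adjusted p under 0.05), beside 76.3% of all genes, and 0 of them were called for the macrophage score after adjustment.

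**Figure D5:**
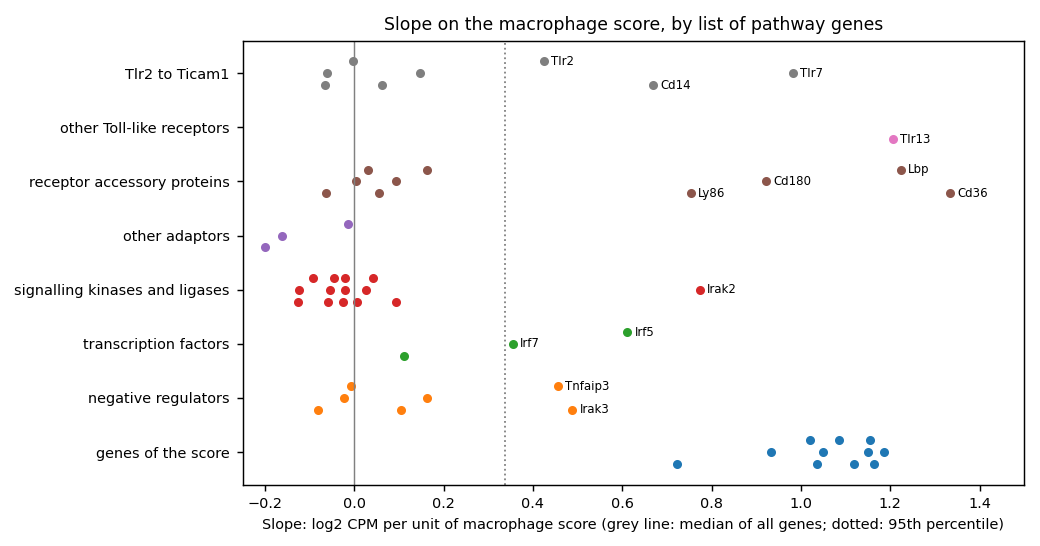
Slope of log2(TMM-scaled CPM + 0.5) on the macrophage score (horizontal axis) for kept genes of each list (1 point per gene; genes with slopes over 0.3 are named), with lines at the median (-0.00) and 95th percentile (0.34) of all 14998 genes. Kinases and ligases other than Irak2 lie near 0, and Tlr7 (0.98), Cd180 (0.92) and Ly86 (0.75) lie within the range of the 11 kept genes of the score, with Tlr13 (1.21), Lbp (1.22) and Cd36 (1.33) above it.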

How the data were processed

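RNA of 6 cultures was sequenced as poly-A libraries with a stranded kit, per the labels' protocols (RNA integrity numbers of at least 8.7). Per the submitters' processing notes, bcl2fastq 2.20.0.422, cutadapt 2.5, STAR 2.7.2b, featureCounts 1.6.4 (Subread) and the build GRCm38.p6 were used; strand and multi-mapping settings are not given in the sources used here. The authors deposited unscaled estimated counts per gene, of which 13.4% to 14.7% in each library were not whole numbers. They were rounded for the chi-square test and left unrounded for CPM. Genes were kept with filterByExpr and scaled with TMM in edgeR 4.0.16 (R 4.3.3), and DESeq2 1.42.0 size factors were an alternative. With 1 group, no contrast could be fitted. In data simulated with counting noise only, the chi-square test recovered 197 of 200 genes with 2-fold differences among 14998, with 8 other calls. That number does not carry over to these cultures, where 76.3% of genes were called. In data simulated with further spread between libraries, the relation test recovered 0 of 200, and 3409 of 3749 when that many genes followed the score.

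The 10 members and all gene lists were chosen with earlier results of these data known. Named genes are the members, the genes of the lists, and the 3 genes most alike to each of the 3 members with the widest range. Intervals and the chi-square test cover counting error only, and PCR duplicates were not separated.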

Additional observations from a re-analysis of the deposited data

How the results depend on the processing

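The number of members varying beyond counting noise was 7 of 8, and 6 to 8 of 8 when another scaling or rounding was used or a replicate was left out. With no filter it was 7 of 10, where Tlr9 passed (chi-square test, adjusted p = 0.00379) and Ly96 (0.0614), Myd88 (0.196) and Tlr5 (0.168) did not. The number related to the macrophage, fibroblast or glial lineage score after adjustment stayed at 0 in every alternative run. For the macrophage and fibroblast scores 0 of all genes tested were called in each run, so this says little about the processing. With a replicate left out there are fewer pairings, which makes a call harder still. The 7 differences between genes, and the share of Tlr4 among TLR genes, depended on length. For genes at low levels, the size of a difference also rests on the 0.1 added before taking logs. Mean CPM per kb was 0.0675 for Tlr9, 0.518 for Tlr2 and 0.612 for Tlr7. With no length scaling, Myd88 minus Ticam1 became -0.16 and Tlr4 minus Ly96 3.25 (log2), both opposite in sign to the values per kb, and 5 other pairs passed: Tlr4 minus Cd14 at 3.24, Tlr3 minus Tlr4 at -0.78, Tlr2 minus Tlr4 at -4.60, Tlr7 minus Tlr9 at 3.14 and Tlr3 minus Tlr7 at 3.27. With the longest coding transcript as length, an alternative chosen after seeing the data, Tlr4 minus Ly96 reversed to 0.58. The other pairs passed at 0.45 (Myd88 minus Ticam1), 1.92 (Tlr4 minus Cd14), -0.88 (Tlr3 minus Tlr4), -4.00 (Tlr2 minus Tlr4), 2.22 (Tlr7 minus Tlr9) and 2.89 (Tlr3 minus Tlr7). Whether a pair passed depended on how many of the 7 pairs reached the smallest p. Leaving out single replicates kept all 7 signs, but with 5 libraries the smallest p is 0.0625. The r of Ticam1 with the glial lineage score, 0.08, was -0.08 with library totals and ran from -0.51 without replicate 2 to 0.54 without replicate 5; the cause was not tested. The r of Tlr3 with the macrophage score, -0.20, ran from -0.71 to 0.22 and that of Tlr4, -0.02, from -0.23 to 0.21 when single replicates were left out. Mean CPM moved least for Myd88 (98.9% to 102% of its value) and most for Tlr9, to 67.0% without replicate 5. No paired analysis was possible because there is 1 group. Depth limits Tlr5 and Tlr9, which lie near 3 counts per library.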
